A study of Mus musculus with 48 samples.

Results

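The lights-off transition in the mouse kidney was examined by setting the late day (ZT8 and ZT10) against the early night (ZT12 and ZT14), within RNA-seq, within RPF-seq and between them. Zeitgeber time (ZT) counts hours from lights-on, and the dark phase of the 12 h light to 12 h dark cycle began at ZT12, so that the ZT12 kidneys were taken at the transition itself. The members were chosen by timepoint alone: 16 of the 48 libraries, 8 of RNA-seq and 8 of RPF-seq, from 8 of 24 pools. Each pool joined kidney lysates of 2 male C57BL/6JRj mice of 11-12 weeks, with 2 replicate pools at each of 12 timepoints 2 h apart, so each window held 4 pools. All mice were entrained to the same cycle for 2 weeks, and the labels give no difference between the groups but the time of day. RPF-seq counts the mRNA fragments that ribosomes protect from nuclease (ribosome footprints), RNA-seq the transcripts of the same pool, and the ratio of footprints to RNA is the translation efficiency (TE). Values are RPKM (reads normalised to library size and to the length of the coding sequence in kilobases), and per-pool values below follow the order ZT8 replicates 1 and 2, ZT10 replicates 1 and 2, then ZT12 replicates 1 and 2 and ZT14 replicates 1 and 2.

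For a nocturnal mouse this transition is the start of the active phase, when feeding, body temperature and circulating corticosterone are near or approaching their daily highs. The circadian clock of each cell is a transcriptional loop in which BMAL1 and CLOCK activate the Period, Cryptochrome, Rev-erb and Ror genes, whose products feed back on the loop. Kidney transcripts also follow systemic cues: glucocorticoid hormones act through the glucocorticoid receptor, insulin represses the targets of FOXO factors, and temperature sets the levels of heat shock chaperones and of cold-inducible RNA-binding proteins.

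Relative depth, read from the steps between low RPKM values and set to a median of 1 over the 24 libraries of an assay, ran from 0.756 to 2.04 in RNA-seq and from 0.711 to 1.35 in RPF-seq. No difference between windows passed the test (exact permutation test, two-sided, p = 0.69 in RNA-seq and p = 0.11 in RPF-seq; the smallest p that 4 against 4 pools allow is 0.0286). The summed markers of the proximal tubule, the most abundant kidney epithelium, lay at 43790 to 48590 RPKM in the late-day RNA libraries and at 51530 to 57580 RPKM in the early-night ones. Podocyte markers summed to 155 to 167 RPKM in late-day footprints and to 131 to 148 RPKM in the early night. Red blood cell markers (4 genes) summed to 72.5 to 165 RPKM in the late-day RNA libraries, where ZT10 replicate 2 was the highest, and to 125 to 217 RPKM in the early night (exact permutation test, two-sided, p = 0.057), with Hba-a1, an alpha globin, among the RNA rises (log2 change 1.02, 24-pool limma adjusted p = 0.035). Their footprints summed to 55.9 to 87.5 RPKM and then to 57.0 to 114 RPKM, and the part of blood content in the RNA changes below was not tested. The windows were apart for proximal tubule RNA, podocyte footprints, and distal nephron and collecting duct footprints. Each had the smallest p allowed (exact permutation test, two-sided, p = 0.0286). Over the 16 tests of 8 marker lists in 2 assays no adjusted p fell below 0.15. With that smallest p, 16 tests leave little room for a lower adjusted p, so cell content is not shown to be unchanged. In such bulk samples, fewer cells of a type and less RNA per cell cannot be told apart. The pool ZT10 replicate 2 differed from its partner in genes known to respond to fasting, as replicate pools also did at some other timepoints. Counts and calls that change without ZT10 replicate 2 are given beside the results.

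Of the 12423 genes listed in both assays, 11863 had a median of at least 0.5 RPKM in both and were tested. With only the 8 pools of an assay in the limma fit, where the 2-h steps within a window count as spread, 2 genes rose (0.0169%) and 2 fell (0.0169%) in RNA-seq at an adjusted p under 0.05, and 4 rose (0.0337%) and 8 fell (0.0674%) in RPF-seq. These 16 calls came from 13 genes. Only the calls of Zbtb16 in RNA-seq and of Tsc22d3 in RPF-seq held when any single pool of the 8 was left out. In a fit of all 24 pools in which each of the 12 timepoints has its own mean, the changes are the same but the spread is that between replicate pools. Under it 173 genes rose (1.46%) and 252 fell (2.12%) in RNA-seq, and 84 rose (0.708%) and 101 fell (0.851%) in RPF-seq. Changes of at least 1.5-fold were few, 34 of the RNA rises, 52 of the RNA falls, 39 of the footprint rises and 44 of the footprint falls. Without ZT10 replicate 2 the 24-pool counts were 704 (5.93%) and 570 (4.8%) in RNA-seq, among them 162 of the 173 rises and 234 of the 252 falls, and 39 (0.329%) and 32 (0.27%) in RPF-seq, among them 32 of the 84 rises and 30 of the 101 falls. Other pools moved the 24-pool counts as well: RNA-seq gave 83 rises and 97 falls without ZT8 replicate 1, 47 and 58 without ZT8 replicate 2, 107 and 103 without ZT10 replicate 1, 56 and 81 without ZT14 replicate 1 and 92 and 125 without ZT14 replicate 2. RPF-seq gave 28 to 84 rises and 23 to 61 falls when any of the 8 pools was left out. Below, rose and fell refer to the 24-pool fit unless the 8-pool fit is named, and a log2 change is the early night minus the late day of log2(RPKM + 0.1) with its standard error (SE).

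Zbtb16, Tsc22d3 and Sgk1, induced by glucocorticoids in many tissues, were all higher in the early night in both assays. Zbtb16 (chr9:48654297-48836222, GRCm38, minus strand), a zinc finger transcription factor, stood at 4.22, 4.50, 5.38 and 3.58 RPKM in the late-day RNA libraries and at 10.8, 12.4, 12.9 and 11.1 RPKM in the early-night ones. Its footprints stood at 2.51, 3.94, 2.08 and 1.78 RPKM and then at 7.59, 9.77, 8.38 and 6.94 RPKM. The windows were apart in both assays, with a log2 change of 1.40 (8-pool SE 0.13, adjusted p = 0.0048) in RNA-seq and of 1.68 (SE 0.21, adjusted p = 0.027) in RPF-seq. In the 24-pool fit its footprint call was lost without ZT10 replicate 2 (adjusted p = 0.067).

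Tsc22d3 (chrX:140539528-140600659, minus strand) encodes GILZ, an anti-inflammatory mediator of glucocorticoid action. It rose from 38.3, 41.2, 57.2 and 50.5 RPKM to 89.8, 93.7, 109 and 119 RPKM in RNA-seq. Footprints rose from 78.3, 73.0, 104 and 85.0 RPKM to 168, 188, 194 and 217 RPKM. Every early-night pool lay above every late-day pool, and the log2 changes of 1.15 (8-pool SE 0.14, adjusted p = 0.014) and 1.18 (SE 0.11, adjusted p = 0.0057) were alike in RNA and footprints.

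Sgk1, a kinase that keeps the epithelial sodium channel at the cell surface, was called in the 24-pool fit only. Its RNA stood at 39.1, 30.6, 36.2 and 72.9 RPKM and then at 64.1, 76.8, 80.8 and 92.2 RPKM, so ZT10 replicate 2 overlapped the early night. The log2 change was 0.88 (24-pool SE 0.17, adjusted p = 0.0086) in RNA-seq and 0.86 (SE 0.15, adjusted p = 0.0078) in RPF-seq, and 1.14 in RNA-seq without that pool. Of the 21 glucocorticoid-responsive genes tested, 6 rose and 0 fell in RNA-seq (Tsc22d3, Sgk1, Zbtb16, Pck1, Errfi1 and Hsd11b1) and 4 rose and 0 fell in RPF-seq (Tsc22d3, Sgk1, Zbtb16 and Fkbp5), where 1.46% and 0.708% of all genes tested rose. Without ZT10 replicate 2, 5 rose and 1 fell in RNA-seq, where 5.93% and 4.8% of all genes did, and 2 rose in RPF-seq, where 0.329% did. Members not called with all pools included Dusp1 with a log2 change of -0.05 and Per1 with 0.19 in RNA-seq. The changes of the 21 ran from -0.56 to 1.40 in RNA-seq and from -0.48 to 1.68 in RPF-seq. Of them, 11 in RNA-seq and 12 in RPF-seq were above 0, beside 5951 and 5390 of the 11863 genes tested. The list's median log2 change was 0.072 in RNA-seq and 0.16 in RPF-seq, beside 0.00099 and -0.017 over all genes tested.

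**Figure D1:**
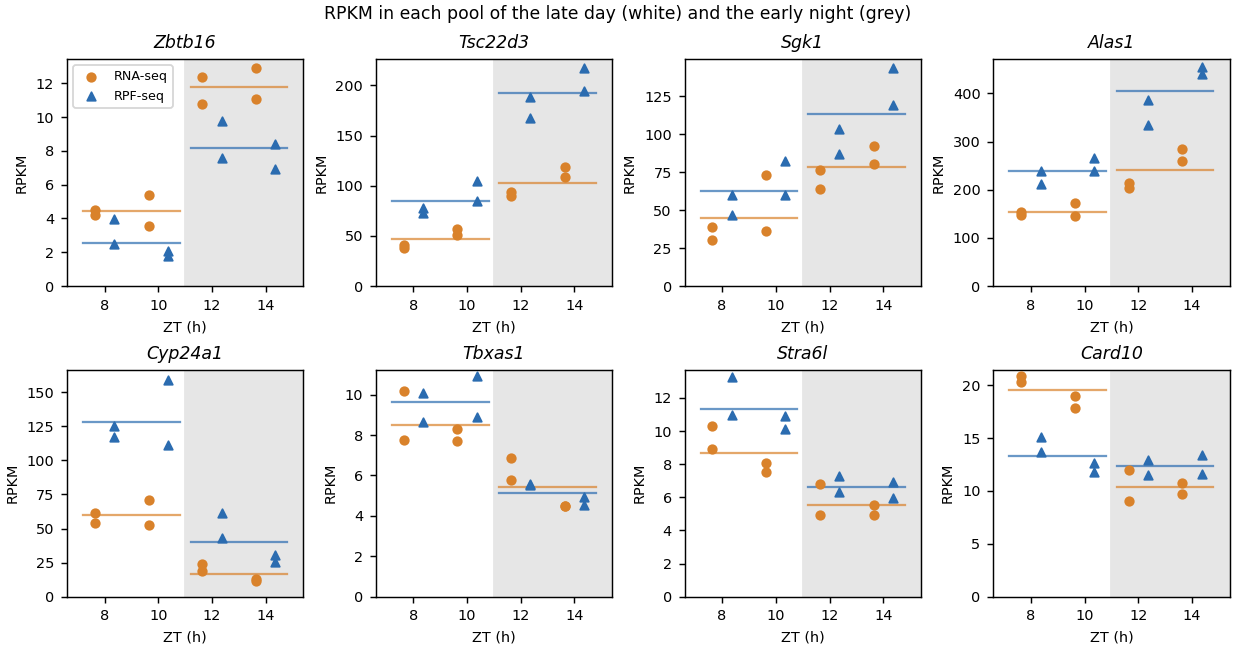
RPKM (y axis, linear from 0) of 8 genes in each pool against ZT (x axis), circles for RNA-seq and triangles for RPF-seq, with lines at the mean of the 4 pools of each window. Zbtb16, Tsc22d3 and Alas1 sat higher in the early night in both assays, Cyp24a1, Tbxas1 and Stra6l lower, and Card10 lower in RNA-seq while its footprints overlapped.

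The largest fall among the genes called in the 8-pool fit was that of Cyp24a1 (chr2:170482708-170497145, minus strand), the mitochondrial hydroxylase that inactivates vitamin D. Its RNA stood at 54.2, 61.7, 52.4 and 70.9 RPKM and then at 19.1, 23.9, 11.5 and 13.2 RPKM. Its footprints stood at 117, 125, 111 and 159 RPKM and then at 42.9, 61.3, 25.3 and 30.4 RPKM. The early-night pools lay well under the late-day ones in both, with log2 changes of -1.87 (8-pool SE 0.21, adjusted p = 0.012) and -1.75 (SE 0.23, adjusted p = 0.027), although in the 24-pool fit the footprint call was lost without ZT10 replicate 2 (adjusted p = 0.052). Cyp24a1 had its highest timepoint mean at ZT6 in both assays and its lowest at ZT0. The other arm of vitamin D handling passed no test: Cyp27b1, which makes the active hormone, had a log2 change of 0.31 in RNA-seq (24-pool adjusted p = 0.75), and Vdr, its receptor, one of -0.17 (adjusted p = 0.47). Both were chosen after their values were seen.

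Other footprint falls of the 8-pool fit were smaller. Dtx4, a ubiquitin ligase of the Notch pathway, stood at 2.43, 2.48, 2.00 and 2.15 RPKM and then at 1.15, 0.913, 0.991 and 0.995 RPKM (log2 change -1.09, SE 0.15, adjusted p = 0.028), values that rest on 29 to 126 reads per library. Tbxas1, thromboxane synthase, stood at 8.63, 10.1, 8.88 and 10.9 RPKM and then at 5.53, 5.55, 4.92 and 4.56 RPKM (-0.89, SE 0.11, adjusted p = 0.027). In both genes the windows were apart in the footprints, and each also fell in RNA-seq (24-pool adjusted p = 0.026 for Dtx4 and 0.0034 for Tbxas1).

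Ddc, which makes dopamine from L-DOPA in the proximal tubule, fell by 0.74 on the log2 scale in RPF-seq (8-pool SE 0.12, adjusted p = 0.0497) and Stra6l, a relative of the retinol transporter Stra6, by 0.76 (SE 0.11, adjusted p = 0.028). Hist1h1e, a linker histone, fell by 0.84 in RPF-seq (SE 0.11, adjusted p = 0.027); its RNA change of -0.37 passed neither fit (24-pool adjusted p = 0.10), and reads of such histone genes can be shared between close copies.

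Alas1 and Adra2b were the other footprint rises of the 8-pool fit. Alas1 (chr9:106233455-106248654, minus strand), the first enzyme of heme synthesis, had 240, 212, 267 and 239 RPKM of footprints in the late day and 335, 387, 440 and 456 RPKM in the early night (log2 change 0.75, SE 0.10, adjusted p = 0.028). Its RNA went from 153, 147, 172 and 147 RPKM to 204, 215, 284 and 260 RPKM, apart as well (0.63, 24-pool SE 0.12, adjusted p = 0.0093), while the 24-pool footprint call did not hold without ZT10 replicate 2 (adjusted p = 0.066). Adra2b, an alpha-2 adrenergic receptor, had 67.1 to 76.0 RPKM of footprints in the late day and 93.5 to 111 RPKM in the early night (0.48, 8-pool SE 0.07, adjusted p = 0.0497), and its RNA ran from 56.8 to 59.1 RPKM and then from 71.5 to 102 RPKM. For both genes the windows did not overlap in either assay.

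Within the core clock loop, 3 of 18 genes tested rose and 1 fell in each assay, with Per2 and Cry1 among the rises and Nr1d1 as the fall. Over all genes tested the shares were 1.46% and 2.12% for RNA, 0.708% and 0.851% for footprints. Per2, a repressor of the loop, stood at 8.69, 10.5, 12.0 and 10.9 RPKM and then at 16.4, 14.5, 28.9 and 27.7 RPKM in RNA-seq, and its footprints stood at 4.81, 6.00, 7.40 and 8.56 RPKM and then at 9.64, 10.9, 15.2 and 17.1 RPKM. The windows were apart, the highest values were at ZT14, and the log2 changes were 0.99 (24-pool SE 0.18, adjusted p = 0.0060) and 0.96 (SE 0.19, adjusted p = 0.017). Cry1, its partner in repression, stood at 2.62, 1.91, 4.36 and 5.94 RPKM and then at 6.57, 8.05, 11.3 and 10.4 RPKM in RNA-seq, with a log2 change of 1.37 (SE 0.17, adjusted p = 0.00066) and of 1.51 in RPF-seq (SE 0.19, adjusted p = 0.00081). Cry1 went on rising after the window, to its highest timepoint mean of 16.1 RPKM at ZT20.

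Nr1d1 (REV-ERB alpha), which represses Bmal1, was past its highest mean at ZT8 and stood at 53.3, 60.1, 40.4 and 18.8 RPKM and then at 30.8, 13.7, 18.4 and 14.4 RPKM in RNA-seq. The pools overlapped because ZT10 replicate 2 was already low and ZT12 replicate 1 still high, and the log2 change was -1.11 (SE 0.22, adjusted p = 0.013), or -1.38 (adjusted p = 0.0011) without ZT10 replicate 2. In RPF-seq it was -0.96 (SE 0.23, adjusted p = 0.049), and the call was lost without that pool (adjusted p = 0.068), as was the footprint call of Per2 (adjusted p = 0.05002). None of these 3 was called in the 8-pool fit, where the adjusted p ran from 0.11 to 0.29. Without ZT10 replicate 2, 4 core clock genes rose and 2 fell in RNA-seq, where 5.93% of all genes rose and 4.8% fell. Arntl (Bmal1) joined the rises with a log2 change of 0.63 at 15 to 80 reads per library. With that omission 2 rose and 0 fell in RPF-seq, where 0.329% and 0.27% of all genes did.

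Per1 and Per3 had log2 changes of 0.19 and 0.04 in RNA-seq and of 0.39 and 0.05 in RPF-seq, none of them called, with Per1 already at its highest RNA mean at ZT10. Clock had 0.18 in RNA-seq, and Csnk1d and Csnk1e, kinases that act on the Period proteins, had -0.03 and -0.02. Of the 12 tested PAR bZIP factors and clock outputs, Nampt, the enzyme that limits NAD salvage, rose in both assays (0.31 and 0.36, the latter with an adjusted p of 0.055 without ZT10 replicate 2), Wee1, a mitotic kinase, rose in RNA-seq (0.51), and Cdkn1a, the cell cycle inhibitor p21, fell in RNA-seq (-1.04). Over all genes tested 1.46% rose and 2.12% fell in RNA-seq, and 0.708% rose in RPF-seq. Dbp, an activator of detoxification genes, went from 79.4, 106, 91.6 and 99.8 RPKM to 85.1, 72.6, 62.0 and 50.4 RPKM in RNA-seq, a log2 change of -0.50 that was not called (adjusted p = 0.084). The lists' median log2 changes in RNA-seq were 0.0080 for the core loop and 0.20 for the outputs.

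**Figure D2:**
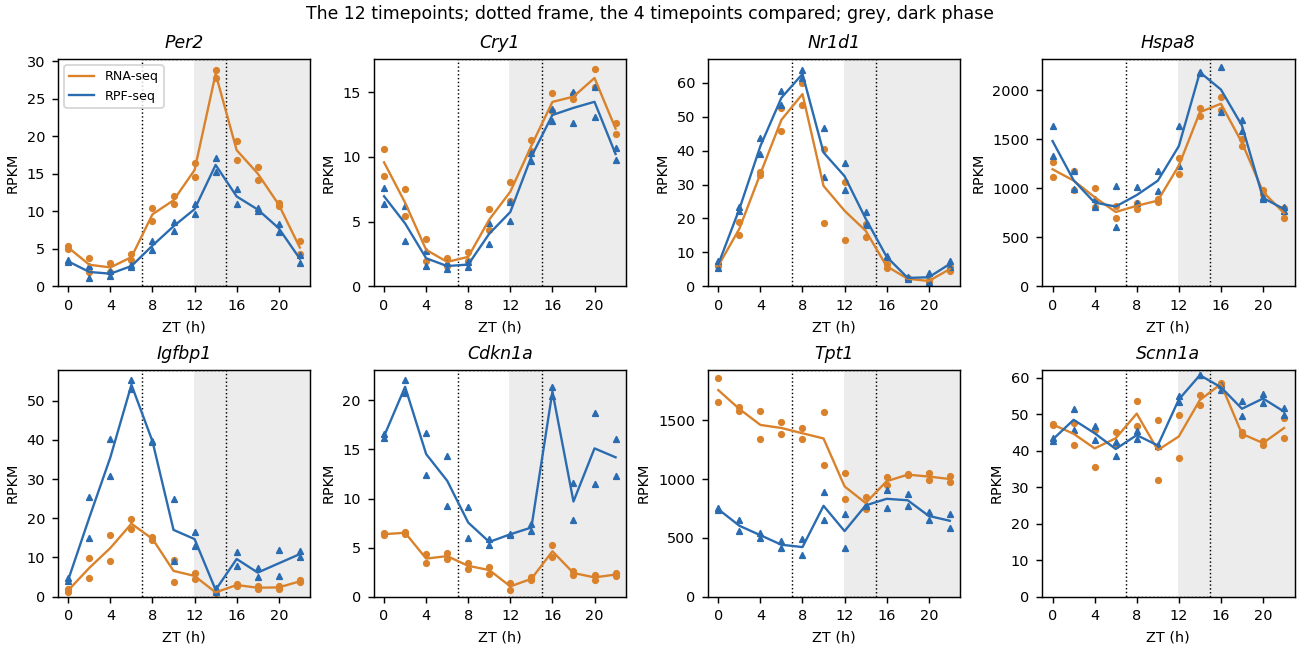
RPKM (y axis, linear from 0) of 8 genes at the 12 timepoints of the day (x axis, ZT), with points for replicate pools and lines through their means, orange for RNA-seq and blue for RPF-seq; the dotted frame holds the 4 timepoints compared. Per2 and Hspa8 reached their maxima at ZT14 to ZT16, and Nr1d1 and Igfbp1 were falling from ZT6 to ZT8 onwards.

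Many heat shock genes encode cytosolic chaperones, which fold and refold proteins and are induced by heat through HSF1. Of the 22 tested, which also include the mitochondrial chaperones Hspd1 and Hspe1, Serpinh1 of the endoplasmic reticulum and Hsf1 itself, 12 rose and 0 fell in RNA-seq and 9 rose and 0 fell in RPF-seq, where 1.46% and 0.708% of all genes tested rose. Without ZT10 replicate 2 the rises were 13 and 6, where 5.93% and 0.329% of all genes rose. The median log2 change of the 22 was 0.42 in RNA-seq and 0.33 in RPF-seq, and none was called in the 8-pool fit. The rise came late in the window: 11 of the 12 in RNA-seq and 9 of the 9 in RPF-seq had their largest 2-h step between ZT12 and ZT14.

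Hspa8, the constitutive HSP70, had 792, 848, 886 and 860 RPKM of RNA in the late day and 1149, 1312, 1817 and 1735 RPKM in the early night. The windows were apart, with log2 changes of 0.80 (24-pool SE 0.08, adjusted p = 8.8e-05) in RNA-seq and 0.82 (SE 0.14, adjusted p = 0.0078) in RPF-seq. Dnajb1, an HSP40 partner of HSP70, stood at 25.1, 26.4, 28.0 and 31.4 RPKM and then at 32.7, 37.0, 77.8 and 77.2 RPKM. Both ZT14 pools were thus far above both ZT12 pools, and the log2 change over the windows was 0.91 (SE 0.09, adjusted p = 8.8e-05). The inducible Hspa1b stood at 8.08, 6.25, 6.998 and 9.60 RPKM and then at 6.71, 13.1, 40.2 and 39.2 RPKM, so that ZT12 replicate 1 was still within the late-day range. Its log2 change was 1.33 (SE 0.22, adjusted p = 0.0034), and that of its near-identical neighbour Hspa1a, with which it can share reads, was 1.199 (SE 0.16, adjusted p = 0.0010). Their footprint rises of 1.37 and 1.42 were not called without ZT10 replicate 2 (adjusted p = 0.086 and 0.066).

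Hsph1, an HSP110 exchange factor, and Chordc1, an HSP90 co-chaperone, rose in both assays, in footprints by 0.83 (SE 0.15, adjusted p = 0.0096) and 0.71 (SE 0.09, adjusted p = 0.00086). The HSP90 genes changed less, with 0.28 for Hsp90ab1 (adjusted p = 0.040) and 0.33 for Hsp90aa1 (adjusted p = 0.087) in RNA-seq. The mitochondrial chaperones Hspd1 and Hspe1 had 0.09 and 0.24 and were not called, and Hsf1 itself had -0.02. Among 18 chaperones of the endoplasmic reticulum, Hspa5 (BiP), Manf and Herpud1 rose in RNA-seq and Dnajb9 in RPF-seq, with list medians of 0.13 in both assays. Over all genes tested 1.46% rose in RNA-seq and 0.708% in RPF-seq.

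**Figure D3:**
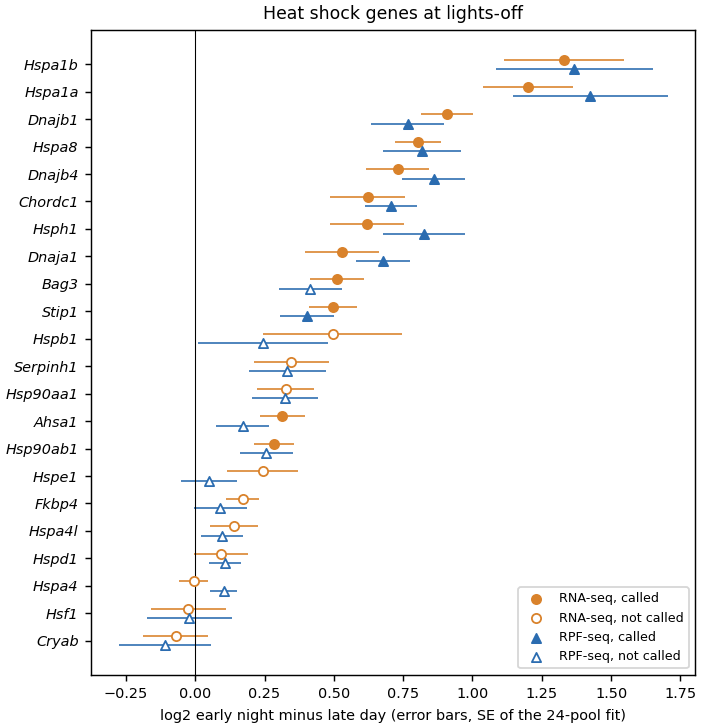
Log2 change from late day to early night (x axis) of the 22 heat shock genes tested (rows), circles for RNA-seq and triangles for RPF-seq, filled where the 24-pool fit called a change; bars are 1 SE. The changes run from -0.11 for the footprints of Cryab to 1.42 for those of Hspa1a, with 12 filled circles and 9 filled triangles.

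The promoters of these genes were read because 12 of the 22 rose in RNA-seq. RefSeq promoter windows on GRCm38.p6 (250 bases before the start and 50 after) were found for 17 of the 22 heat shock genes, and the letters GAANNTTC, the paired unit of heat shock elements, were searched on both strands. This motif was added after the values were seen. It was in 6 of 10 windows of members called in either assay and in 4 of 7 of those not called, against 7.05% of 9337 tested genes with a window. Called and not called members thus held it in like shares, 60% and 57.1%, and a match is a run of letters, not a bound site. The windows of Hsph1 (chr5:149636266-149636565, minus strand), Chordc1 (chr9:18292017-18292316, plus strand) and Hspa1b (chr17:34959189-34959488, minus strand) are printed 5′ to 3′ with each match in capitals; in Hsph1 the first capitals are instead the E-box CACGTG, which overlaps no other match.
Hsph1: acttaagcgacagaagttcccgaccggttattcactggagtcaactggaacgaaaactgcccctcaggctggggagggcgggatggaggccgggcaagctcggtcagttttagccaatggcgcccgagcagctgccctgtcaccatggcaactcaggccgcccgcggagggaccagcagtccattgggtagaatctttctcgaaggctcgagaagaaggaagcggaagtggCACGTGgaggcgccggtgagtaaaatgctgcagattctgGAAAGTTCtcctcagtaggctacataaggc
Chordc1: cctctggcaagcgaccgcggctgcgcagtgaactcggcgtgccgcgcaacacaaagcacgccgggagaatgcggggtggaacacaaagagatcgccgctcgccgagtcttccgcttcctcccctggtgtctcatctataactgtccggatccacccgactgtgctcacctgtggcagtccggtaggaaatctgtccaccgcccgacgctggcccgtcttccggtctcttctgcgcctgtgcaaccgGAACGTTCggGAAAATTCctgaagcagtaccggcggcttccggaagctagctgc
Hspa1b: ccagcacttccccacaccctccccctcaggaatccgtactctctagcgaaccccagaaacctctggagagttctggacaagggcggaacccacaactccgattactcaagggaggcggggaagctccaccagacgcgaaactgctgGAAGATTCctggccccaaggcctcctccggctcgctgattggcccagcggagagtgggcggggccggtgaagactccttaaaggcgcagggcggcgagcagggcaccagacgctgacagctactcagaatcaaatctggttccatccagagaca
Hsph1, for which 1 of 2 listed windows is shown, held GAANNTTC just past its start, Chordc1 held it across its start and again 2 bases further on, and Hspa1b held it 104 bases before its start. The E-box CACGTG, bound by BMAL1 and CLOCK, was in 11.9% of tested genes with a window and in 4 of 13 windows of core clock genes, Cry1, Per1, Bhlhe41 and Ciart, of which only Cry1 was called. In the window of Cry1 (chr10:85185005-85185304, minus strand), shown for the E-box in capitals, it began 60 bases before the start.
Cry1: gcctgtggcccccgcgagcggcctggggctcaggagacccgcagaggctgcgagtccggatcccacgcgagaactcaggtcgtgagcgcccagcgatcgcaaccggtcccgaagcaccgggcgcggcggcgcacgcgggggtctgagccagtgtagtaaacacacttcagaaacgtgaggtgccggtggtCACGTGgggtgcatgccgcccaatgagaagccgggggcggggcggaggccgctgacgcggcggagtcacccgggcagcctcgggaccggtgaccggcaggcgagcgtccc
The D-box TTATGTAA was in 0.739% of tested genes with a window and the CRE TGACGTCA in 3.38%, and neither was in a window of the 17 heat shock genes.

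Cirbp and Srsf5, RNA-binding proteins that respond to temperature, fell over the same step at which the chaperones rose. Cirbp, the cold-inducible RNA-binding protein, stood at 34.3, 39.7, 36.0 and 44.0 RPKM and then at 29.2, 34.1, 16.01 and 13.95 RPKM in RNA-seq (log2 change -0.82, 24-pool SE 0.14, adjusted p = 0.0041) and fell by 0.87 in RPF-seq (SE 0.16, adjusted p = 0.014). It was chosen after its values were seen. Srsf5, an SR splicing factor, stood at 159, 174, 177 and 161 RPKM and then at 150, 147, 95.4 and 94.6 RPKM (-0.50, SE 0.06, adjusted p = 0.00066). Tra2a, a splicing activator, went the other way and rose by 0.61 (SE 0.12, adjusted p = 0.015) in RNA-seq and by 0.91 (SE 0.16, adjusted p = 0.0086) in RPF-seq. All 3 had their largest RNA step between ZT12 and ZT14. Rbm3, another cold-inducible protein, had 0.14 in RNA-seq and -0.15 in RPF-seq, neither called. Of the 17 genes of this list, 1 rose and 3 fell in each assay; without ZT10 replicate 2 the footprint falls were 2.

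Among 21 insulin and FOXO genes, Igfbp1 and Txnip fell in both assays and Arrdc4 in RNA-seq (not without ZT10 replicate 2, adjusted p = 0.064), while Pck1 and G6pc rose in RNA-seq. Over all genes tested 1.46% rose and 2.12% fell in RNA-seq, and 0.851% fell in RPF-seq. Igfbp1, a secreted IGF-binding protein that insulin represses, stood at 15.1, 14.3, 9.34 and 3.83 RPKM and then at 6.10, 4.50, 0.983 and 1.22 RPKM in RNA-seq. Its footprints stood at 39.7, 39.6, 24.9 and 9.20 RPKM and then at 16.4, 13.0, 1.32 and 2.17 RPKM. It was the largest footprint fall of any gene called, -2.26 (SE 0.29, adjusted p = 0.00081) and -1.91 in RNA-seq (SE 0.27, adjusted p = 0.0013), although ZT10 replicate 2 lay below the early-night pools of ZT12. Txnip, which restrains glucose uptake, fell by 0.49 (SE 0.10, adjusted p = 0.011) in RNA-seq and by 0.45 (SE 0.09, adjusted p = 0.017) in RPF-seq. Pck1 and G6pc make glucose in the proximal tubule; their RNA changes were 0.82 (adjusted p = 0.034) and 0.55 (adjusted p = 0.011), and without ZT10 replicate 2, the lowest pool for both, 0.57 (adjusted p = 0.062) and 0.45 (adjusted p = 0.017). Irs2, an insulin receptor substrate, had -0.83 with ZT14 replicate 1 at 6.22 RPKM and ZT14 replicate 2 at 17.95 RPKM and was not called.

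Of 34 sodium and water transport genes, 2 rose in RNA-seq (Sgk1 and Wnk1) and 3 in RPF-seq (Sgk1, Scnn1a and Nedd4l), and 0 fell in either, where 1.46% and 0.708% of all genes tested rose. With ZT10 replicate 2 left out, 4 rose in RNA-seq, Kcnj1 and Aqp1 being added, and 2 in RPF-seq, where 5.93% and 0.329% of all genes rose. Scnn1a, the alpha subunit of the epithelial sodium channel, had 45.4, 43.2, 41.6 and 41.3 RPKM of footprints in the late day and 54.9, 53.2, 60.6 and 60.8 RPKM in the early night (log2 change 0.42, 24-pool SE 0.06, adjusted p = 0.0014). Its RNA stood at 53.5, 46.8, 48.3 and 32.0 RPKM and then at 49.9, 37.9, 52.5 and 55.3 RPKM. The footprint windows were apart and the RNA windows overlapped (0.13, adjusted p = 0.59), but the difference between assays did not pass the TE test (0.29, adjusted p = 0.48). Nedd4l, the ubiquitin ligase that removes the channel, rose by 0.34 in RPF-seq (adjusted p = 0.035) beside 0.12 in RNA-seq (adjusted p = 0.20), and was not called without ZT10 replicate 2 (adjusted p = 0.080). The footprint sum of 13 distal nephron and collecting duct markers lay at 5864 to 6310 RPKM and then at 6388 to 7523 RPKM, and its part in these 2 rises was not tested. Over the whole list 25 of 34 log2 changes were above 0 in RNA-seq and 26 in RPF-seq, with medians of 0.073 and 0.090. Among all genes tested 5951 and 5390 of 11863 were above 0.

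Atf4, a stress-response transcription factor under control of upstream open reading frames, rose in both assays (0.46, adjusted p = 0.0046, and 0.74, adjusted p = 0.013); 0 others of its 18-gene list were called with all pools. Without ZT10 replicate 2 its footprint call was lost (adjusted p = 0.061), while 3 members rose in RNA-seq, Atf4, Ddit3 and Cth, and 1 fell, Vldlr. Of 20 organic ion transporters and detoxification enzymes, Alas1 and Ces2c, a carboxylesterase, rose in RNA-seq and Alas1 in RPF-seq. Of 20 cell cycle and DNA repair genes, Wee1 rose and Cdkn1a, Xpa and Plk2 fell in RNA-seq, with 0 called in RPF-seq. Of 17 actin and SRF target genes, Cnn1, a smooth muscle calponin, fell in RPF-seq. Amd1, the decarboxylase that supplies polyamine synthesis, rose in RPF-seq (0.43, adjusted p = 0.015). With all pools, 1.46% of all genes tested rose and 2.12% fell in RNA-seq, and 0.708% rose and 0.851% fell in RPF-seq. In the 20 immediate early genes, 19 PPAR alpha fasting genes, 25 cholesterol synthesis and SREBP genes and 79 cytosolic ribosomal protein genes, 0 were called in either assay. These RNA counts all depended on ZT10 replicate 2. Without it 2 immediate early genes (Ier3 and Klf6) and 2 PPAR alpha genes (Cpt2 and Acadm) rose in RNA-seq, 1 cholesterol gene rose (Msmo1) and 2 fell, and 22 ribosomal protein genes rose and 1 fell, where 5.93% of all genes rose and 4.8% fell; 0 were called in RPF-seq. With that pool, 67 of 79 ribosomal protein genes had log2 changes above 0 in RNA-seq, at a median of 0.086.

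Genes called in RNA-seq mostly had the same sign in footprints, but fewer were called in both. Of the genes that rose, 43 did so in both assays, 24.9% of those of RNA-seq and 51.2% of those of RPF-seq; of those that fell, 37 did, 14.7% and 36.6%. In RNA-seq 165 of the 173 rises and 221 of the 252 falls had the same sign in RPF-seq. Their median RPF changes were 0.25 and -0.22 beside median RNA changes of 0.38 and -0.43. For the footprint rises and falls, the median RNA changes were 0.35 and -0.34 beside median RPF changes of 0.54 and -0.55. The smaller median was thus always that of the assay not used to select the genes. Of the RNA rises 32, and of the RNA falls 64, had a footprint change within 0.1 of 0. Neither this share nor that of same signs was taken over all genes tested, so these counts are a description. Across all genes tested, which are not independent replicates, Pearson's r of the 2 log2 changes was 0.48. TE was called for 0 genes in either direction (0%) in the 8-pool fit, with 836 at an unadjusted p under 0.05, and in the 24-pool fit for 2 rises (0.0169%) and 0 falls. Without ZT10 replicate 2 the 24-pool fit called 14 rises and 6 falls.

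**Figure D4:**
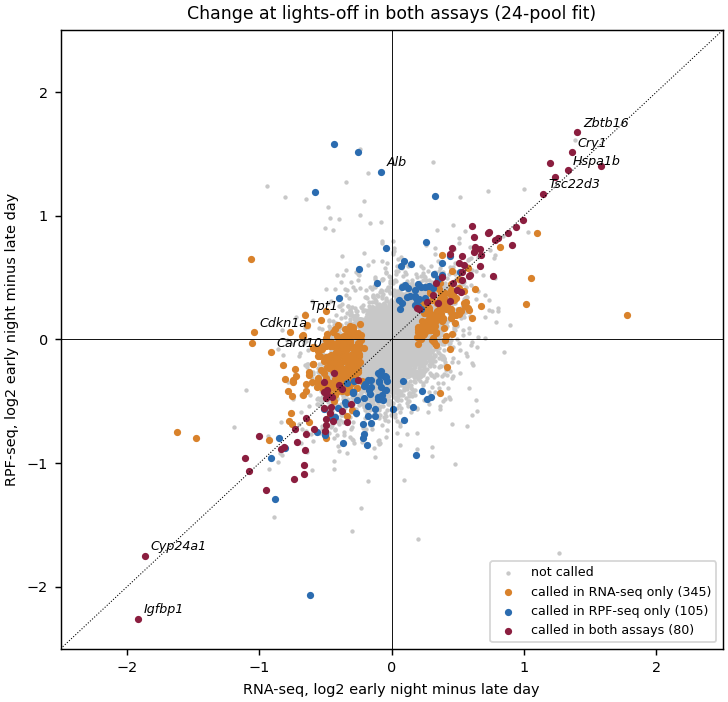
Log2 change from late day to early night in RNA-seq (x axis) against RPF-seq (y axis) for the 11863 genes tested, coloured by the assay in which the 24-pool fit called a change; the dotted line marks equal change. The 80 genes called in both lie along it, whereas Card10, Cdkn1a and Tpt1 lie to the left near 0 on the RPF axis, and Alb lies high near 0 on the RNA axis.

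Card10 (chr15:78775138-78803042, minus strand), a scaffold of NF-kappa B signalling, was the clearest fall in RNA without one in footprints, and 1 of the 2 TE rises. Its RNA stood at 20.9, 20.3, 19.0 and 17.9 RPKM and then at 9.04, 12.0, 9.70 and 10.7 RPKM. Its footprints stood at 13.6, 15.1, 12.7 and 11.8 RPKM and then at 11.6, 13.0, 11.6 and 13.4 RPKM. The RNA windows were far apart (log2 change -0.91, 8-pool SE 0.11, adjusted p = 0.013), the footprint windows overlapped (-0.10, adjusted p = 0.68), and TE rose by 0.81 (24-pool SE 0.11, adjusted p = 0.015, and 0.025 without ZT10 replicate 2).

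Other RNA falls had small footprint changes, but TE was not called for them. Cdkn1a stood at 3.48, 2.80, 3.07 and 2.36 RPKM and then at 1.37, 0.733, 1.68 and 1.96 RPKM in RNA-seq, on 6 to 30 reads per library, and its footprint change was 0.06. Tpt1, an abundant translationally controlled protein, stood at 1343, 1436, 1569 and 1123 RPKM and then at 828, 1049, 745 and 849 RPKM in RNA-seq (-0.66, SE 0.10, adjusted p = 0.0016). Its footprints, at 356, 488, 654 and 892 RPKM and then 412, 704, 772 and 781 RPKM, overlapped across the windows, and its TE change of 0.85 (adjusted p = 0.18) was called without ZT10 replicate 2 (1.09, adjusted p = 0.017). Pabpc1, the poly(A)-binding protein, likewise fell by 0.29 in RNA-seq (adjusted p = 0.029) with 0.07 in RPF-seq. Over the 16 TOP-type translation factors, whose mRNAs carry a 5′ terminal oligopyrimidine tract and are under mTOR control, the median log2 change was -0.033 in RNA-seq and 0.17 in RPF-seq.

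Some transcripts typical of hepatocytes, Alb, Hpx and Serpina3k, showed the reverse, higher footprints without higher RNA. Alb, serum albumin, had 28.0, 48.1, 30.8 and 21.3 RPKM of footprints in the late day and 130, 60.8, 60.9 and 80.1 RPKM in the early night (log2 change 1.36, 24-pool SE 0.25, adjusted p = 0.013). Its RNA stood at 8.50, 19.7, 15.6 and 4.72 RPKM and then at 16.3, 7.13, 9.46 and 9.05 RPKM (-0.08, adjusted p = 0.93). Hpx, hemopexin, and Serpina3k, a serine protease inhibitor, rose in footprints by 1.58 (adjusted p = 0.031) and 1.51 (adjusted p = 0.039), with RNA at or below 2.58 RPKM. Of the 7 hepatocyte markers, all had positive footprint changes (median 0.65), 1 of them called, beside 5390 of the 11863 genes tested. In RNA-seq 2 had positive changes (list median -0.079), beside 5951 of the 11863. These 2 were Serpina1a with 0.41 beside 0.09 in footprints and Ttr with 0.44 beside 0.32. None of the footprint calls of Alb, Hpx and Serpina3k held without ZT10 replicate 2 (adjusted p = 0.061, 0.12 and 0.16), while the TE change of Alb, 1.44 with an adjusted p of 0.16, was called without it (1.73, adjusted p = 0.025). Fgb, a fibrinogen chain, fell in RNA-seq (-1.06, adjusted p = 0.033, and 0.059 without ZT10 replicate 2) on 12 to 96 reads per library and was the other TE rise (1.72, SE 0.19, adjusted p = 0.0026). The summed hepatocyte markers ranged from 146 to 392 RPKM and from 294 to 466 RPKM in RNA-seq and from 231 to 502 RPKM and from 466 to 799 RPKM in RPF-seq (exact permutation p = 0.46 and 0.29, two-sided), and the part of liver-derived RNA in these changes was not tested. All of these genes were chosen after their values were seen.

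The pool ZT10 replicate 2 had 133 RPKM of RNA of Cyp4a14, a fatty acid hydroxylase, against 8.57 to 58.4 RPKM in the other 7 pools. Pdk4, which spares glucose during fasting, stood at 26.8 RPKM there and at 5.30 to 12.2 RPKM in the others, and Bcl6, a repressor of lipid genes, at 3.43 RPKM against 7.70 to 49.97 RPKM. Its footprints were the highest of the 8 pools for Cyp4a14, at 289 RPKM, and the lowest for Bcl6, at 4.06 RPKM. Wide gaps between replicate pools in these genes were not limited to ZT10. Cyp4a14 RNA stood at 58.4 and 8.57 RPKM at ZT8 and at 7.67 and 42.8 RPKM at ZT22, but at 80.7 and 79.6 RPKM at ZT16. Bcl6 RNA stood at 6.77 and 24.8 RPKM at ZT0 and at 7.08 and 33.1 RPKM at ZT20, but at 33.5 and 28.8 RPKM at ZT8. The SD over genes of the log2 difference between replicate pools was 0.38 at ZT10 and 0.35 at ZT12 in RNA-seq, beside a median of 0.27 over the 12 timepoints.

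**Figure D5:**
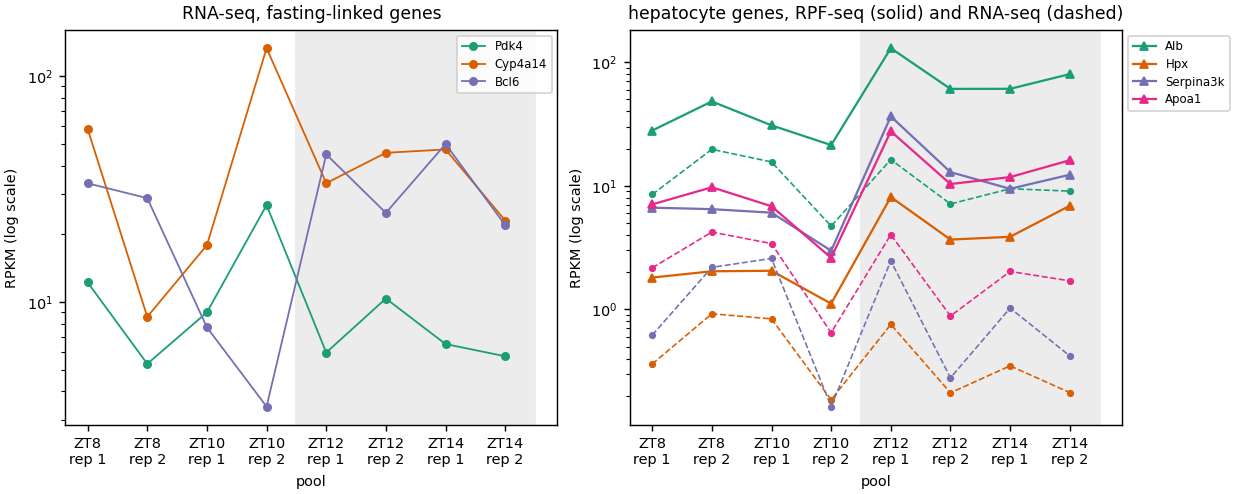
RPKM on a log scale (y axis) in each of the 8 pools (x axis; grey, early night) for 3 genes linked to fasting in RNA-seq (left) and for 4 hepatocyte genes (right; solid for RPF-seq, dashed for RNA-seq). ZT10 replicate 2 was the highest pool for Pdk4 and Cyp4a14 and the lowest for Bcl6, and the footprints of Alb and Hpx were higher in the early night while their RNA was not.

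The timing of the changes within the window differed among genes. Of the RNA rises, 110 had their largest 2-h step between ZT10 and ZT12, 43 between ZT12 and ZT14 and 20 between ZT8 and ZT10, or 63.6%, 24.9% and 11.6%. Among all genes with a positive RNA change the shares were 40.2%, 28.1% and 31.7%. The RNA falls had 173 of 252 (68.7%) between ZT10 and ZT12, beside 39.0% of all genes with a negative change. A called change between the windows favours the middle step, so these shares are a description. Zbtb16, Cyp24a1, Card10 and Alb belong to the genes that moved between ZT10 and ZT12, and the chaperones, Cirbp, Srsf5 and Tra2a to those that moved between ZT12 and ZT14.

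The opposite transition, from late night (ZT20 and ZT22) to early day (ZT0 and ZT2), was set beside lights-off. The change at lights-off differed from that at lights-on in 13.6% of all genes tested in RNA-seq and in 0.851% in RPF-seq. Relative depth of the RNA libraries was 0.598 to 0.832 in the late night and 0.929 to 1.37 in the early day, and its part in the RNA count was not tested. Of the RNA rises at lights-off, 112 of 173 differed and 34 fell at lights-on; of the RNA falls, 189 of 252 differed and 111 rose. Over all genes tested 4.9% rose and 3.97% fell at lights-on in RNA-seq. These genes were chosen by their change at lights-off, which is part of the difference tested, so the shares that differed are a description. In RPF-seq 25 of 84 rises and 21 of 101 falls differed. At lights-on 0 of all genes tested were called in RPF-seq (0%), so the lack of such calls among these genes is not particular to them. Card10 was among the RNA genes that reversed, with -0.91 at lights-off and 1.24 at lights-on (adjusted p of the difference 2.8e-06), and Tsc22d3 had 1.15 and -0.72 (0.00042). The difference was not called for Cyp24a1, which had -1.87 and -0.03 in RNA-seq (adjusted p = 0.083). Of the 12 chaperones that rose in RNA-seq, the difference was called for 1, and Hspa8 and Dnajb1 had 0.42 and 0.43 at lights-on, the same sign as at lights-off.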

How the data were processed

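Per the labels and the study's methods, the authors trimmed reads with cutadapt, mapped them with Bowtie2 2.2.1 and TopHat2 2.0.11 to GRCm38.p2, built transcript models with Cufflinks 2.2.1, normalised libraries by upper quantiles with edgeR and deposited RPKM values, 1 for each gene in a library. Upper quantile scaling removes any change in total RNA or footprints per cell. No counts were used, so no count model was fitted.

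Values were transformed to log2(RPKM + 0.1), and 11863 genes with a median of at least 0.5 RPKM in both assays were fitted with limma 3.58.1 in R 4.3.3 (lmFit, eBayes with a variance trend, Benjamini-Hochberg, adjusted p under 0.05). Windows were compared in 8 pools, and as an alternative in all 24 with 12 timepoint means. TE was taken per pool as log2 RPF minus log2 RNA. Replicate pools held different mice, collected and processed in ways the labels do not tie across timepoints, so p-values measure the spread between these pools. The 8-pool fits were checked on simulated data with independent noise in each gene. The 24-pool fit, the contrast with lights-on and the permutation test were not checked in this way. Relative depth came from 60 low genes, whose ratios between libraries are fractions of whole read numbers. The change at lights-off minus that at lights-on was a contrast over the 16 pools of 4 windows. Single values per library were compared by exact permutation over 70 splits. Coordinates are those of GENCODE vM21.

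The comparison and the gene lists were chosen with earlier results of these data known. Genes named are the 10 largest changes per direction in each assay among genes called in the 8-pool fit whose windows do not overlap, up to 8 per direction for TE, all tested members of the core clock and clock output lists, and up to 4 members with the smallest adjusted p in each other list (symbols beginning with Gm or ending in Rik left out of the first 2 groups). Named beyond this rule, after their values were seen, are list members called in the 24-pool fit or in it without ZT10 replicate 2, its 12 largest changes per direction, Hsf1, Hspd1, Hspe1, Hsp90aa1, Dusp1, Rbm3 and Irs2, the vitamin D, globin, hepatocyte and fasting genes, and the motif GAANNTTC. Alternatives were other pseudocounts, RPKM minimums, scalings, fits and thresholds, and leaving out each pool. Some genes that the rule names are not reported here.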

Additional observations from a re-analysis of the deposited data

Results flagged for a closer look

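A sample far from the other 3 of its window was found in 2 of the 88 groups of 4 pools examined, where chance gives about 1 in 20. Hist1h1e RNA in ZT10 replicate 1 was 99.06 RPKM, beside 145 to 152 RPKM in the other late-day pools. The summed hepatocyte markers in RPF-seq were 231 RPKM in ZT10 replicate 2, beside 493 to 502 RPKM in the other 3.

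The change at lights-off differed from that at lights-on, by the test of the difference across 16 libraries, for 9 genes reported here among those called in the 8-pool fit. They were chosen by their change at lights-off, which is part of the difference tested, so this is a description. Over all genes tested the difference was called for 13.6% in RNA-seq and 0.851% in RPF-seq. On the log2 scale, lights-off minus lights-on, the difference was 1.863 in RNA-seq and 1.859 in RPF-seq for Tsc22d3, 1.74 and 2.154 for Zbtb16, and -2.148 in RNA-seq for Card10. In RPF-seq it was 0.7701 for Adra2b, -0.9362 for Ddc, -1.02 for Dtx4, -1.25 for Hist1h1e, -1.305 for Stra6l and -0.8489 for Tbxas1.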

How the results depend on the processing

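In the 8-pool fit, pseudocounts, RPKM minimums and scalings kept the RNA-seq counts within 1.5 times, and no named gene changed sign under any alternative. Counts below are rises and falls. The 24-pool fit gave 173 and 252 for RNA, 84 and 101 for footprints and 2 and 0 for TE, and 4 timepoint means gave 14 and 10 for RNA and 68 and 66 for footprints; both leave fewer differences in the spread by construction. An adjusted p under 0.01 left 1 and 0 for each assay. A median RPKM of at least 2 gave 7 rises in RPF-seq and 2 for TE, and a pseudocount of 1 gave 8 for TE; the cause was not tested. With each pool left out of the 8-pool fit, RNA gave 1 to 46 and 0 to 66, footprints 1 to 10 and 0 to 13, and TE 0. The same omissions in the 24-pool fit were chosen after seeing the data. In RNA-seq they gave 83 and 97 without ZT8 replicate 1, 47 and 58 without ZT8 replicate 2, 107 and 103 without ZT10 replicate 1, 704 and 570 without ZT10 replicate 2, 246 and 300 without ZT12 replicate 1, 144 and 227 without ZT12 replicate 2, 56 and 81 without ZT14 replicate 1 and 92 and 125 without ZT14 replicate 2. In the same order, the footprint counts were 39 and 30, 30 and 23, 84 and 55, 39 and 32, 46 and 54, 45 and 29, 47 and 61, and 28 and 24, and TE gave 1 to 14 rises, including 3, and 0 to 6 falls, including 2. With a replicate block the counts were 5 and 2 for RNA, 3 and 4 for footprints and 0 for TE, and the footprint calls of Adra2b, Alas1, Ddc and Dtx4, among others, were lost. The study's methods name 2 daily cycles of collection, and the labels do not say whether a replicate number stands for a cycle. Replicate 1 minus replicate 2 was taken for each gene at each of the 4 timepoints. Over genes, these differences correlated between timepoints at -0.04 to 0.37 in RNA-seq and at -0.014 to 0.076 in RPF-seq. Of the 6 pairs of timepoints, 4 in RNA-seq and 0 in RPF-seq were over 0.1, so the block was kept as an alternative. Low genes rest on few reads, such as 6 to 30 per RNA library for Cdkn1a, and limit what these depths can show.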
